A study of Homo sapiens with 6 samples.

Results

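Keratin genes were examined in MCF10A cells, a widely used human mammary epithelial line with basal features, 72 hours after transfection with 30 nM siRNA. The 2 groups, of 3 samples each, were siNT, given an siRNA with no target, and siPAX9, given siRNAs against the transcription factor gene PAX9, and both were transfected in the same way. Every gene symbol made of KRT, a number and at most 1 letter from A to C was taken from the deposited table, which gave 55 keratin genes among 26822 distinct symbols. Each keratin had 1 row in the table, and KRT15 alone shared its row with another symbol, the microRNA gene MIR6510. The authors deposited 1 FPKM for each group, a read count per transcript length and library size, and the table holds no value per sample. The spread between the 3 samples of a group is therefore unknown, and the reads that underlie an FPKM cannot be counted. No new test between the groups could be made from these values, and the authors' own test results were not used. In what follows, higher and lower describe the authors' group values, and a gene was counted when its FPKM differed by at least 2-fold.

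Keratins are the intermediate filament proteins of epithelial cells. An acidic type I keratin and a basic type II keratin pair to form each filament, so that the genes of both types are normally transcribed together in matched pairs. In stratified epithelia the basal layer makes KRT5 with KRT14, the layers above it switch to KRT1 with KRT10 in skin or KRT4 with KRT13 in mucosa, and wounded or activated epithelium adds KRT6 genes with KRT16 and KRT17. Simple epithelia, such as the luminal cells of the breast, make KRT8 with KRT18 together with KRT7 and KRT19, while a separate set of hard keratins builds hair and nail. The type II genes and KRT18 lie side by side on chromosome 12, and the other type I genes on chromosome 17.

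In these cells, 18 of the 55 keratins had a mean FPKM of the 2 groups of at least 1, and 11 of those 18 were at least 2-fold higher in siPAX9. None was at least 2-fold lower. The 11 were KRT6A, KRT6B, KRT6C and KRT16 of activated epithelium, KRT10 and KRT13 of suprabasal layers, KRT80, and KRT81, KRT83, KRT85 and KRT86 of hair and nail. The basal keratins KRT5, KRT14 and KRT15 and the abundant KRT17 differed by less than 2-fold, as did the simple keratins KRT7, KRT8 and KRT18. Among all 13264 named symbols with a mean FPKM of at least 1, 6.82% were at least 2-fold higher and 6.9% at least 2-fold lower. The median log2 difference of siPAX9 over siNT was 1.42 for the 18 keratins and -0.07 for all of these symbols, and 17 of the 18 keratins were above 0 against 44.7% of the symbols. KRT13 and KRT80 entered the count only through their siPAX9 level, since both were under an FPKM of 1 in siNT. With an FPKM of at least 1 in siNT required instead, 9 of 16 keratins were at least 2-fold higher, beside 4.27% of the 12925 symbols that met that condition.

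How the libraries were scaled against each other is not stated, and the summed FPKM of all named loci was 572477 in siNT and 474457 in siPAX9. Dividing each group by its own sum adds 0.27 to every log2 difference and puts the median of all symbols at 0.20. On that scale 12 of the 18 keratins were at least 2-fold higher and 0 lower, and the shares of all symbols were 10.5% higher and 4.23% lower. None of the 18 keratins moved to the other side of 0.

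**Figure D1:**
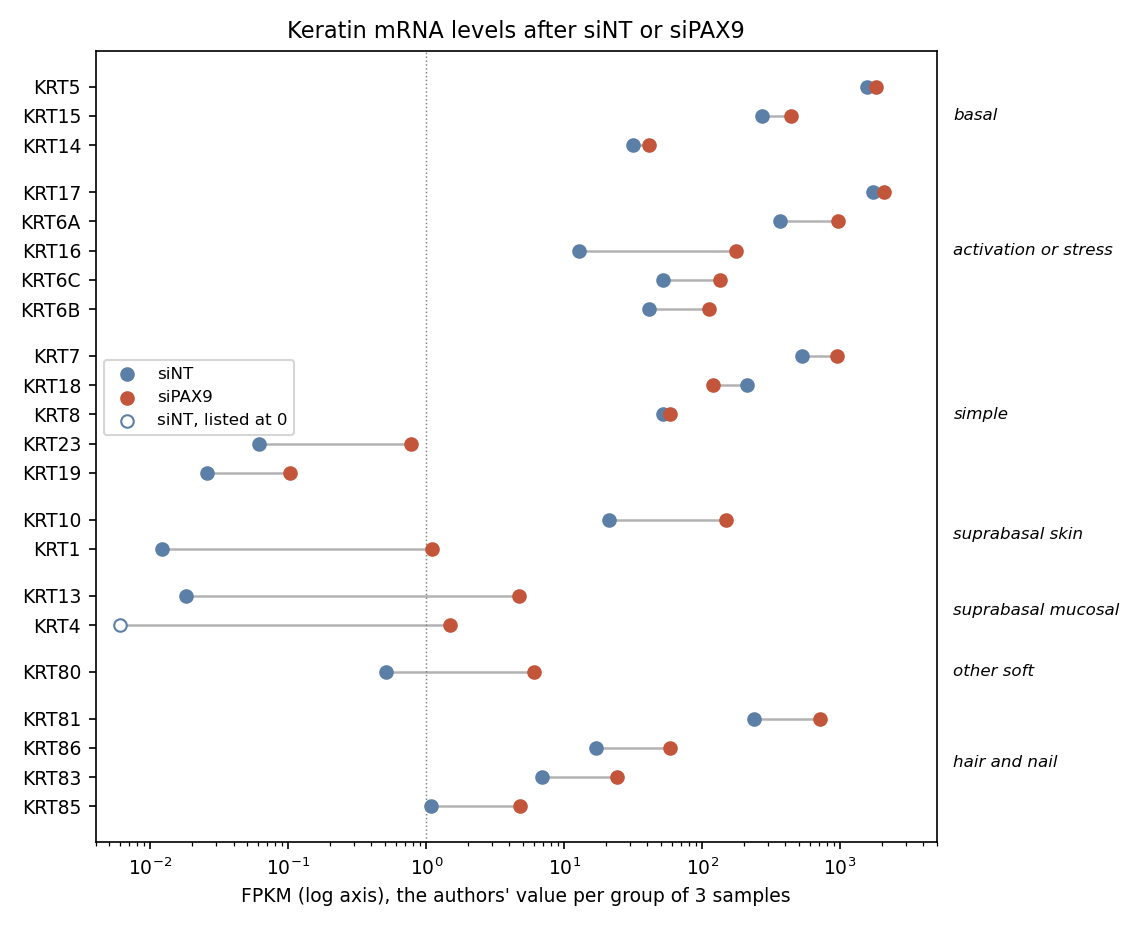
FPKM of 22 keratins on a log axis, with 1 point for the siNT group and 1 for the siPAX9 group of 3 samples each, joined by a grey line and ordered by tissue class, and with no error because the table gives 1 value per group. The points of KRT5 and KRT17 nearly touch near the right edge and those of KRT14 nearly touch further left, while KRT13, KRT1 and KRT4 cross the dotted line from far to its left, and KRT18 is the 1 gene drawn with siPAX9 to the left of siNT. The dotted line marks an FPKM of 1, and an open circle stands for a gene listed at 0 and is drawn at the left edge.

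Sequence upstream of the start site is given for 4 genes that stand for the contrasting patterns: KRT10 and KRT85, which were higher in siPAX9, KRT4, which was listed at 0 in siNT, and KRT5, which differed little. The sequences are the 250 bases before each gene's start in RefSeq on assembly GRCh38.p14, all on the minus strand, and this assembly is not the build of the expression table. They come from a promoter table that matched 34 of the 55 keratins, of which KRT5, KRT8, KRT10 and KRT85 are among the 18 with a mean FPKM of at least 1. Capitals mark the letters TATAAA, a form of the TATA box that positions the transcription machinery.
KRT10, chr17:40822615-40822864: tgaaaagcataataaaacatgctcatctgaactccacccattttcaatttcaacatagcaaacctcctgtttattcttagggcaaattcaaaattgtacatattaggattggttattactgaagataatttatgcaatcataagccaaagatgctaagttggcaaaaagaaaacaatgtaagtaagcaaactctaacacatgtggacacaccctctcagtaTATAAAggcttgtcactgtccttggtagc
KRT85, chr12:52367482-52367731: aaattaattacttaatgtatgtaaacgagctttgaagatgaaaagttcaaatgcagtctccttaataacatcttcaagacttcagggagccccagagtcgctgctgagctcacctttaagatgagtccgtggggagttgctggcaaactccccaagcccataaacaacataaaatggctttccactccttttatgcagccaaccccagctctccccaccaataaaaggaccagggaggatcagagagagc
KRT4, chr12:52814117-52814366: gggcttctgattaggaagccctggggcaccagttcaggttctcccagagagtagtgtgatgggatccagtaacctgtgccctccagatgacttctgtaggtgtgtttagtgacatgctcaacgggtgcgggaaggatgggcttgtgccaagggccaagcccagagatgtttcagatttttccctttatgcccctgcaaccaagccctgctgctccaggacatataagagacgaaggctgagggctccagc
KRT5, chr12:52520395-52520644: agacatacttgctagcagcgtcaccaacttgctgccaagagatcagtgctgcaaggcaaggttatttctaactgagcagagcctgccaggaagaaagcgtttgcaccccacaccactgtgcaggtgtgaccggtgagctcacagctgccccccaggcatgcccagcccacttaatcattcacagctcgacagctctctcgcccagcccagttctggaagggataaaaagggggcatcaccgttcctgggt
In KRT10 the letters TATAAA begin 29 bases before the start, and the other 3 windows do not hold these exact letters. Other forms of the TATA box were not searched for, so those 3 windows may hold one. On either strand, TATAAA was in 20 of the 34 keratin windows and in 11.1% of all 27305 windows of this length. The letters GGGCGG, a GC box, were in 4 of the 34 keratin windows, those of KRT9, KRT37, KRT38 and KRT75, and in 42.3% of all windows. The letters TGANTCA, in which N is any base, were in 0 of the 34 keratin windows and in 6.60% of all windows. This pattern takes in sites of AP-1 but is not limited to them. Of the 20 keratins whose window held TATAAA, KRT10 was the 1 with a mean FPKM of at least 1.

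PAX9, the gene targeted by the siRNAs, was at an FPKM of 2.80 in siNT against 0.325 in siPAX9, which left 11.6% of the siNT level. The markers of basal breast epithelium were present in both groups. KRT5 and KRT14 are given below, TP63 was at 35.4 in siNT and 25.3 in siPAX9, EGFR at 64.3 and 58.1, and the hormone receptor genes ESR1 and PGR were at most at 0.317 in both. CDH1, which encodes E-cadherin, was at 45.3 in siNT and 124 in siPAX9. Of 7 fibroblast markers, DCN went from 5.85 to 37.9 and COL1A1 from 0.454 to 4.13, while the other 5, among them COL1A2 and COL3A1, were at most at 0.0782 in both groups. The list summed to 6.40 in siNT and 42.2 in siPAX9. Of the immune markers, CD14 went from 14.4 to 56.5, CD3E was listed at 0 in both groups and PTPRC was at most at 0.0922. Of 3 endothelial markers, PECAM1 was at 2.58 in siNT and 0.495 in siPAX9 and CDH5 and VWF were at or near 0, with list sums of 2.58 and 0.516. DCN, COL1A1 and CD14 were higher in the same group as the keratins described below, and their part in those differences was not tested.

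All 3 basal keratins differed by less than 2-fold, and their levels were far apart. KRT5, the type II keratin of the basal layer, is encoded on chromosome 12 from 52908359 to 52914243 (hg19, minus strand) and stood at 1558 FPKM in siNT and 1807 in siPAX9, a log2 difference of 0.21. Its usual type I partner KRT14, on chromosome 17 from 39738531 to 39743147, was far less abundant, at 31.4 in siNT and 40.9 in siPAX9. KRT15, a type I keratin of basal cells and of stem cells in the hair follicle, was at 272 in siNT and 443 in siPAX9, the largest of the basal differences at 0.70 on the log2 scale. On the FPKM scale, which is per length, KRT5 stood 49.6-fold above KRT14 in siNT and 44.2-fold above it in siPAX9. The 3 basal keratins together made up 36.3% of all keratin FPKM in siNT and 29.2% in siPAX9, although each was higher in siPAX9.

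Among the keratins of activated or wounded epithelium, 4 of the 5 with a mean FPKM of at least 1 were more than 2-fold higher in siPAX9. KRT16, a type I keratin that appears in wounded and hyperproliferative epidermis, lies on chromosome 17 from 39765935 to 39769115 and stood at 12.7 FPKM in siNT and 175 in siPAX9. That is a 13.7-fold difference, 3.78 on the log2 scale and 3.68 with 1 added to both values, and placed KRT16 at rank 6019 in siNT and at rank 352 in siPAX9 of all named symbols by level. KRT17, which also marks activated epithelium and is the neighbour of KRT16 on chromosome 17 (39775692 to 39780882), was the most abundant keratin of both groups, at 1718 in siNT and 2088 in siPAX9, a log2 difference of 0.28. Adjacent genes of this pair thus differed by 3.78 and 0.28 on the log2 scale. KRT75, the remaining member of this class and a keratin of the hair companion layer, was at or under 0.0841 in both groups.

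The type II keratins of this class are the near-identical copies KRT6A, KRT6B and KRT6C, which lie in a row on chromosome 12. KRT6A was at 368 in siNT and 959 in siPAX9, KRT6B at 41.2 and 113, and KRT6C at 51.9 and 134. Their log2 differences of 1.38, 1.45 and 1.37 lie close together. Reads of 76 bases can be hard to place among these copies, as 25.9% of the 76-base windows of the longest coding transcript of KRT6A also occur in a transcript of another gene on either strand, as do 34.1% of those of KRT6B and 42.1% of those of KRT6C. Summed over the 3 genes, FPKM was 461 in siNT and 1206 in siPAX9, 2.62-fold higher. If each shared read was counted once, the sum depends little on how such reads were divided among the 3. How they were counted is not given in the sources used here. KRT6A held 79.8% of that sum in siNT and 79.5% in siPAX9, so the division among the 3 copies was nearly the same in both groups.

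KRT16 is commonly paired with KRT6A, and this pair came nearer to balance. The FPKM of KRT6A was 28.9 times that of KRT16 in siNT and 5.49 times in siPAX9. For KRT16, 9.48% of 76-base windows occur in another gene, mainly the pseudogene KRT16P3 and KRT14, and no window of KRT10 or KRT15 does. KRT6B, a partner of KRT17, had 0.0240 of the FPKM of KRT17 in siNT and 0.0539 in siPAX9.

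The keratins of suprabasal layers were under an FPKM of 1 in siNT apart from KRT10, and KRT13, KRT1 and KRT4 reached that level in siPAX9 only. KRT10, the type I keratin of differentiating epidermis, is given a locus on chromosome 17 from 38974092 to 38992526. Neither end of that range equals an end of the annotated gene, and whether other transcripts within it added reads was not tested. KRT10 was at 20.98 in siNT and 148 in siPAX9, a 7.06-fold difference and 2.82 on the log2 scale. Its type II partner KRT1 (chromosome 12, 53068520 to 53074191) was at 0.0120 in siNT and 1.09 in siPAX9, so in siPAX9 KRT1 had 0.00738 of the FPKM of KRT10. KRT2, KRT9 and KRT77, the other epidermal members, were at or under 0.135 in both groups.

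The mucosal pair of suprabasal keratins also appeared at low levels. KRT13, the type I partner, lies on chromosome 17 from 39657233 to 39661865 and was at 0.0182 in siNT and 4.67 in siPAX9, a log2 difference of 8.004 that becomes 2.48 with 1 added to both values. Of its 76-base windows, 15.9% occur in an unnamed annotated gene. KRT4, the type II partner on chromosome 12 from 53200327 to 53207900, was listed at 0 in siNT and at 1.48 in siPAX9. In siPAX9 KRT4 had 0.316 of the FPKM of KRT13. The other mucosal and corneal keratins, KRT3, KRT12, KRT24, KRT76 and KRT78, stayed at or under 0.457, and each was higher in siPAX9 than in siNT. For values under an FPKM of 1, as for the others, the error is unknown.

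The simple keratins, which are typical of luminal and other single-layered epithelia, held both directions. KRT7, a type II keratin of glandular epithelium on chromosome 12 from 52626954 to 52642709, was at 534 in siNT and 953 in siPAX9, 1.79-fold higher, and on the scale that divides by each group's sum its log2 difference of 1.11 passed the 2-fold mark. KRT8 was at 51.7 in siNT and 58.7 in siPAX9. KRT18, the type I partner of KRT8, was at 212 in siNT and 119 in siPAX9 and was the only 1 of the 18 keratins that was lower in siPAX9, with a log2 difference of -0.83. KRT8 thus had 0.244 of the FPKM of KRT18 in siNT and 0.493 in siPAX9.

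KRT8 and KRT18 overlap in the table. Both are given the same locus, chromosome 12 from 53290971 to 53346685, on opposite strands, and 22.7% of the 76-base windows of the longest coding transcript of KRT18 occur in another gene, mostly in other transcripts of KRT8, against 0.254% of the windows of KRT8. Whether the reads were counted by strand is not given in the sources used here, so reads from the shared part cannot be told apart. KRT19, another luminal keratin and the usual companion of KRT7, was nearly absent, at 0.0258 in siNT and 0.103 in siPAX9. KRT23 was at 0.0612 and 0.768, and KRT20, a keratin of gut epithelium, was listed at 0 in siNT and at 0.0231 in siPAX9.

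The hair and nail keratins made up 5.08% of the keratin FPKM in siNT and 10.2% in siPAX9, and all 4 members with a mean FPKM of at least 1 were more than 2-fold higher. Nearly all of this was KRT81, a type II hair keratin, at 236 in siNT and 713 in siPAX9. KRT86 was at 17.05 in siNT and 58.3 in siPAX9, KRT83 at 6.95 and 24.1, and KRT85 at 1.07 and 4.74. These 4 are neighbours on chromosome 12 between 52668429 and 52761309, and their log2 differences were 1.60, 1.77, 1.79 and 2.14. Their sum was 261 in siNT and 800 in siPAX9, 3.07-fold higher.

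KRT81 and KRT86 share reads to a degree that limits the value of each. They are given the same locus from 52668429 to 52702947 on opposite strands, and 36.3% of the 76-base windows of KRT81 and 36.2% of those of KRT86 occur in another gene, most of them in each other. Summed over the pair, FPKM was 253 in siNT and 771 in siPAX9, 3.05-fold higher. KRT83 and KRT85, with 3.39% and 3.33% of windows shared, were higher to a similar degree. The type I hair keratins KRT31 to KRT40, which would pair with them, were at or under 0.227 in both groups, and all 8 keratins of the inner root sheath of the hair follicle were at or under 0.0120. Of the keratin-associated proteins, which cross-link hair keratins in the hair shaft, 81 of 93 symbols were listed at 0 in both groups and none had a mean FPKM of at least 1.

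KRT80, a type II keratin found in many epithelia and linked with cell junctions, lies at the end of the chromosome 12 series from 52562780 to 52585784. It was at 0.510 in siNT and 6.00 in siPAX9, a log2 difference of 3.56 that becomes 2.21 with 1 added to both values, and no 76-base window of its longest coding transcript occurs in another gene.

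The 37 keratins with a mean FPKM under 1 add little to the level. Of these, 15 were listed at 0 in both groups, 19 were higher in siPAX9 and 3 were lower, namely KRT222, KRT75 and KRT39. For 13 of the 19 the siNT value was listed at 0, and none was listed at 0 only in siPAX9. Of all 13558 named symbols with a mean FPKM under 1, 47.6% were listed at 0 in both groups, 34.0% were higher in siPAX9, 18.4% were lower and 8.92% were listed at 0 in siNT only, against 40.5%, 51.4%, 8.11% and 35.1% of the keratins. Together they summed to an FPKM of 0.915 for siNT and 5.55 for siPAX9, and KRT4 and KRT1 gave the 2 highest values in siPAX9. The largest siNT value of this set was that of KRT222, at 0.413 against 0.235 in siPAX9.

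The make-up of the whole keratin pool differed between the groups through genes of intermediate level. The summed FPKM of the 55 keratins was 5133 in siNT and 7854 in siPAX9, a ratio of 1.53. KRT5 and KRT17 together held 63.8% of the sum in siNT and 49.6% in siPAX9. KRT6A went from 7.17% to 12.2% of the sum, KRT81 from 4.60% to 9.07%, KRT16 from 0.248% to 2.22% and KRT10 from 0.409% to 1.89%, while KRT18 went from 4.12% to 1.51%. In siNT the 5 most abundant keratins were KRT17, KRT5, KRT7, KRT6A and KRT15, and in siPAX9 they were KRT17, KRT5, KRT6A, KRT7 and KRT81. Covering 90% of the sum took 6 genes in siNT and 7 in siPAX9, and the inverse Simpson index, which gives the number of equally abundant genes with the same evenness, was 4.40 and 6.01.

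**Figure D2:**
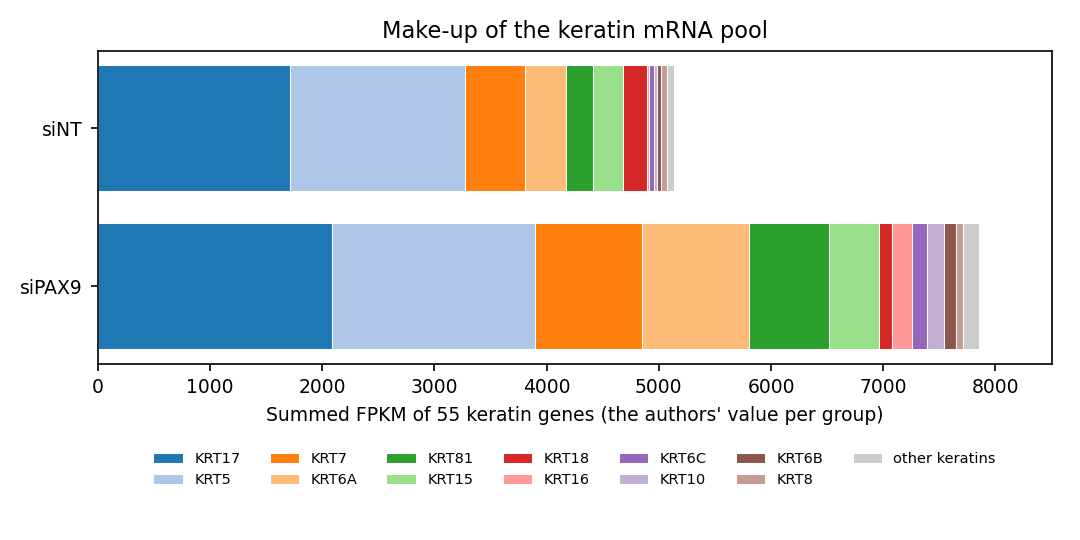
Summed FPKM of the 55 keratins in siNT and siPAX9, with each bar divided into the 12 keratins of highest mean FPKM and all other keratins in grey; the bars hold 1 group value each and have no error. The siPAX9 bar is longer, 7854 against 5133, and the added length lies mainly in KRT6A, KRT81, KRT7, KRT17, KRT5, KRT15 and KRT16, while the KRT18 segment is shorter.

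Type I and type II keratins were not equally represented. Type I genes held 44.2% of the keratin FPKM in siNT and 38.5% in siPAX9, with sums of 2267 and 3020, and type II genes had sums of 2866 and 4834. Of the 7 type I keratins with a mean FPKM of at least 1, 3 were at least 2-fold higher, and of the 11 type II keratins 8 were. The type I share rests on KRT17, without which it was 16.1% in siNT and 16.2% in siPAX9. FPKM is a level of mRNA, and protein levels were not measured in these data.

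Along chromosome 12 the keratins that were at least 2-fold higher fell into runs of neighbours. The series there holds 27 genes from 52562780 to 53346685, of which 12 had a mean FPKM of at least 1 and 8 were at least 2-fold higher. Read from its start, KRT80 was higher, KRT7 was under 2-fold, KRT81, KRT86, KRT83 and KRT85 were higher, then after 3 genes at low level or 0 KRT6B, KRT6C and KRT6A were higher, and KRT5 next to them differed little. Of the 14 genes beyond KRT5, KRT18 and KRT8 were the 2 with a mean FPKM of at least 1. On chromosome 17, 28 genes span 38811872 to 39780882, 6 had a mean FPKM of at least 1, and the 3 of these that were at least 2-fold higher were KRT10, KRT13 and KRT16, none of which adjoins another of the 3. Neighbours that share sequence or a locus, as given above for the KRT6 genes and for KRT81 with KRT86, are not separate measurements.

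**Figure D3:**
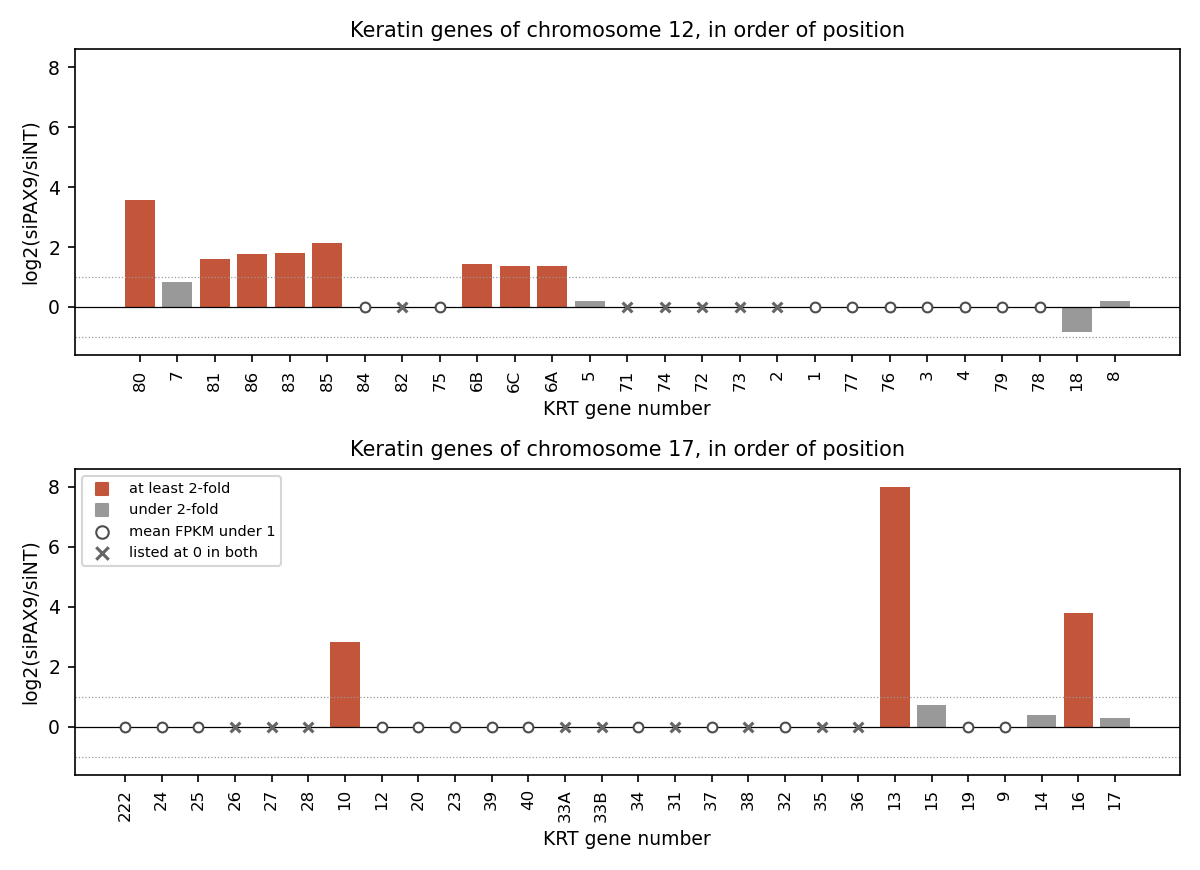
Log2 of siPAX9 over siNT for the keratin genes of chromosomes 12 and 17, in order of position and not to scale in distance, with bars for the 18 genes with a mean FPKM of at least 1, red where the difference was at least 2-fold and grey where it was not. Circles and crosses on the zero line stand for genes with a mean FPKM under 1 or listed at 0 in both groups and give no value. Runs of red bars are seen for KRT81, KRT86, KRT83 and KRT85 and for the KRT6 genes, and single red bars for KRT80, KRT10, KRT13 and KRT16.

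Level and difference were set side by side across genes. Across the 18 keratins, Spearman's correlation of mean FPKM with the log2 difference was -0.56, and across the 13144 named symbols with a mean FPKM of at least 1 and a value above 0 in both groups it was -0.17. Across the 16 keratins with an FPKM of at least 1 in siNT, which leaves out KRT13 and KRT80, it was -0.41. These are correlations across genes within the same pair of group values, genes are not independent replicates, and the mean contains the siPAX9 value. The 2 most abundant keratins, KRT5 and KRT17, differed by 0.21 and 0.28 on the log2 scale, and the less abundant KRT14 and KRT8 by a similar 0.38 and 0.18.

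Genes that work with keratins were compared as lists, each to be read against the 6.82% of all named symbols that were at least 2-fold higher and the 6.9% that were at least 2-fold lower. Among 16 other intermediate filament genes, 5 had a mean FPKM of at least 1, of which 0 were at least 2-fold higher and 2 at least 2-fold lower, with a median log2 difference of -0.94. VIM, which encodes vimentin, the filament protein of mesenchymal cells that cultured epithelial cells also make, was at 301 in siNT and 53.5 in siPAX9. LMNB1, a lamin of the nuclear envelope, was at 19.9 and 6.89, and LMNA, another lamin, at 104 and 118. Vimentin and keratin mRNA thus differed in opposite directions, with VIM lower and the summed keratin FPKM higher in siPAX9.

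Of 20 genes for anchors and linkers of keratin filaments, 15 had a mean FPKM of at least 1, with 3 at least 2-fold higher, 1 at least 2-fold lower and a median log2 difference of 0.45. HRNR passed that minimum through siPAX9 only, and of the 14 genes with an FPKM of at least 1 in siNT, 2 were higher and 1 lower, beside 4.27% and 7.61% of all symbols that met that condition. PPL, which encodes the linker periplakin, was at 21.1 in siNT and 70.1 in siPAX9, EPPK1, for epiplakin, at 3.31 and 7.84, and HRNR, for hornerin, at 0.756 and 1.99. PKP2, for the desmosome protein plakophilin 2, was at 45.6 and 19.2. DSP, for desmoplakin, which ties keratins to desmosomes, was at 154 and 239, and PLEC, for plectin, which ties them to hemidesmosomes, was at 88.7 and 110.

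All 13 cornified envelope genes with a mean FPKM of at least 1, of 17 listed, were at least 2-fold higher in siPAX9, with a median log2 difference of 6.12 over the 12 that are above 0 in siNT, or 3.95 over all 13 with 1 added to both values. Of the 13, 8 passed the minimum through siPAX9 only and so had to be higher. The 5 genes with an FPKM of at least 1 in siNT, SPRR1B, PI3, TGM1, CSTA and CNFN, were also all at least 2-fold higher, with a median log2 difference of 2.34. These genes encode the proteins and enzymes of the cross-linked shell of terminally differentiated keratinocytes, to which suprabasal keratins are attached. The involucrin gene IVL was at 0.0910 in siNT and 15.8 in siPAX9, SPRR1B, for a small proline-rich protein, at 3.18 and 334, PI3, for elafin, at 28.03 and 1414, and TGM1, for the cross-linking transglutaminase 1, at 10.6 and 53.6. Among other genes for small proline-rich proteins, SPRR1A was at 0.532 and 56.4, SPRR2A at 0.211 and 52.1, SPRR2D at 0.578 and 44.5, and SPRR2E at 0.181 and 18.6, and the SPRR2 genes are close copies among which reads can be hard to place. SBSN, for suprabasin, was at 0.0673 and 4.23. Of the 5 genes with an FPKM of at least 1 in siNT, SPRR1B and PI3 had larger log2 differences than KRT16 and KRT10. TGM1, CSTA and CNFN had smaller ones than either, at 2.34, 1.39 and 1.17.

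**Figure D4:**
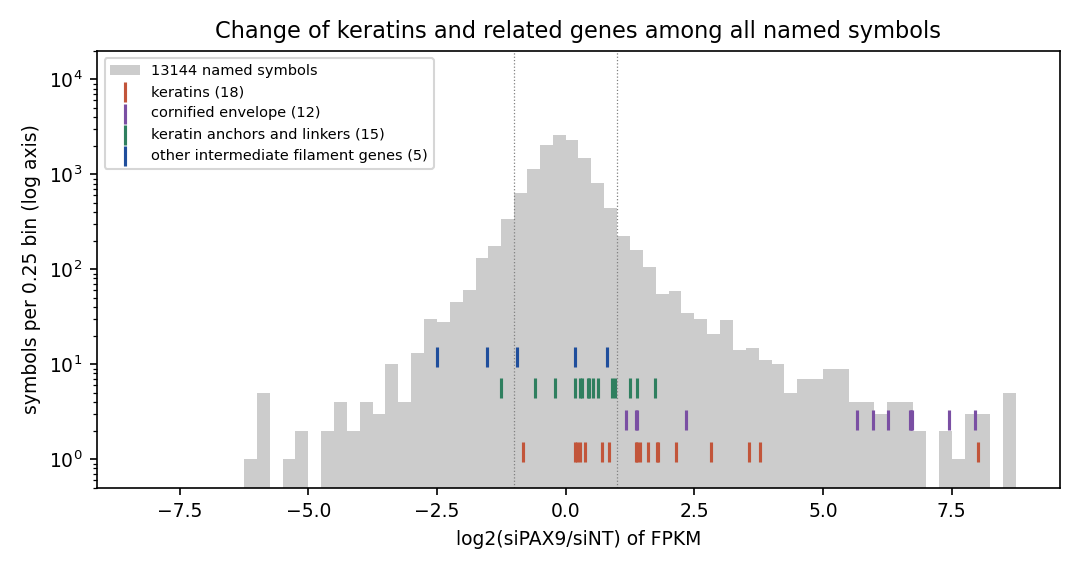
Histogram of log2 of siPAX9 over siNT for the 13144 named symbols with a mean FPKM of at least 1 and a value above 0 in both groups, with counts on a log axis, and with each gene of 4 lists as a vertical tick at a height chosen for display. Ticks of the 18 keratins lie mostly right of the 2-fold line at 1, those of 12 cornified envelope genes all do (SPRR3 is listed at 0 in siNT and not drawn), those of the 15 anchors and linkers lie mainly between the lines, and 2 of the 5 other intermediate filament genes lie left of the line at -1.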

How the data were processed

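RNA-seq of poly(A)+ RNA was performed on 6 samples, 3 for siNT and 3 for siPAX9. The authors aligned single-end reads to UCSC hg19 with Bowtie 2, quantified them with Cufflinks within Partek Flow and deposited 1 FPKM per locus and group for 41656 loci, of which 13978 carry no symbol. The deposited fold changes, test statistics, p-values and q-values were not used. Depth per library is not in the table, so the precision of a value is unknown.

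Members and lists were chosen with earlier results of these data known. Rows were split at commas, the row of highest mean was kept for each symbol, values up to 0.0001 were read as 0, and symbols with a mean FPKM of at least 1 were counted at a 2-fold difference. Every keratin that reached this mean was named, as were KRT1 and KRT4, which reached an FPKM of 1 in siPAX9, partners of named members, and list members past 2-fold, up to 8 per list by size, beside DSP, PLEC and VIM. Genes named outside this rule, such as KRT23, KRT222, LMNA, TGM1, CSTA and CNFN, were chosen after their values were seen.

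Shared 76-base windows of each member's longest coding transcript were counted against all GENCODE release 44 transcripts on GRCh37, which has the coordinates of hg19. All 55 members overlapped their gene there, and for 33 the locus had a start or end equal to that of the annotated gene. Coordinates given above are those of the loci. Upstream sequences and motifs came from RefSeq. The calculations were tested on simulated data. Python 3.11.15, numpy 2.4.6, pandas 2.3.3 and matplotlib 3.10.9 were used. 1 of the listed cell type markers is not reported here.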

Additional observations from a re-analysis of the deposited data

Results flagged for a closer look

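Keratin pseudogenes lie outside the 55 genes, and 4 of them were above an FPKM of 1 in siPAX9 and under it in siNT. KRT16P3 had an FPKM of 8.89 in siPAX9 and 0.554 in siNT, KRT16P2 had 4.05 and 0.428, and KRT16P1 had 1.55 and 0.105. Their parent gene KRT16 was at 175 in siPAX9 and 12.7 in siNT, and of the 1583 windows of 76 bases in the longest coding transcript of KRT16, 91 also occur in KRT16P3, 41 in KRT16P2 and 20 in KRT16P1. KRT19P2, whose row is shared with the microRNA gene MIR492 and which the authors marked as not tested, was listed at 0 in siNT and at 6.78 in siPAX9, while KRT19 itself was at 0.0258 in siNT and 0.103 in siPAX9. How reads were divided between the parent genes and these copies was not tested.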

How the results depend on the processing

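No paired analysis was possible because the table holds 1 value per group and none per sample, and for the same reason no sample could be left out. The count of 11 keratins at least 2-fold higher became 5 at a 4-fold threshold (which 2.74% of all 13264 named symbols passed), 30 of 40 without a filter on level, and 6 of 12 without the members that share at least 20% of their 76-base windows (KRT6A, KRT6B, KRT6C, KRT18, KRT81 and KRT86). Of the 30, 13 were listed at 0 in siNT and so counted as higher at any siPAX9 level, and without a filter 18.5% of all 20370 named symbols above 0 in either group were at least 2-fold higher. The count of 0 keratins lower became 1, KRT18, at a 1.5-fold threshold. Without KRT17 the type I share was 16.1% in siNT and 16.2% in siPAX9. The other 34 values of the counts, the median, the summed FPKM and the type I share stayed within 1.5 times. They include all those under a mean FPKM of at least 5, 1 added to both values, centring on the median, rows with 1 symbol, summed rows, loci marked OK by the authors, and division by each group's sum. Division by each group's sum, the removal of sharing members and the filters on 1 group were chosen after seeing the data. The limit of 1.5 times was a fixed tolerance and does not measure the spread between samples, which is unknown without values per replicate.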
